A study of Oryza sativa with 24 samples.

Results

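Aux/IAA proteins and auxin response factors (ARFs) are the transcriptional end of the auxin response in plants. ARFs bind auxin response elements in promoters, and Aux/IAA proteins bind ARFs and hold their targets repressed until auxin drives Aux/IAA breakdown through the TIR1/AFB receptors. The mean expression levels of 44 rice genes of these families were examined in the maturing seed, 25 taken as Aux/IAA and 19 taken as ARF. The members were chosen by gene ID, as a fixed list that was drawn up with the deposited data known. The list names both families but does not label single IDs, so the split was inferred from the point where its sorted order starts again, and every family value below rests on it. Of the members, 33 were found among the 17780 gene IDs of the deposited tables.

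The study concerns pre-harvest sprouting, in which grains germinate while still on the panicle. It compared the japonica accessions Jowoon, which resists sprouting, and Gopum, which sprouts readily, both wild type and grown in a field. Embryo and endosperm were sampled on days 30, 45 and 60 counted from heading, and each RNA sample combined material of several plants. The labels give 24 mRNA libraries in 12 groups of accession, stage and tissue, with 2 libraries in each group.

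Each level given here is the authors' mean log2 CPM of a gene, where CPM stands for its reads per library scaled to a common library size. The same value stands in all 3 stage tables of a tissue, so it was read as pooled over all libraries of the tissue, with accessions and stages together. How many libraries entered it is not shown, nor whether the mean was taken before or after the log. The tables do not hold a value for a single library, accession or stage in that column, so no standard deviation, n or test can be attached to it, and no difference between Jowoon and Gopum or between stages was analysed here. The depth of the libraries is unknown. CPM is not divided by gene length, and no length could be matched to these IDs, so an order of genes below is an order of reads and not of transcripts.

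The embryo tables held 16897 genes with a median of 3.87 log2 CPM, and the endosperm tables held 14049 genes with a median of 3.15. The 10 most abundant genes took 11.1% of all CPM in the embryo and 43.5% in the endosperm. Among the 13166 genes with a level in both tissues, the embryo value was the larger by a median of 1.32 log2 units. The tissues were scaled separately, so tissue differences of the members are given relative to this median. IDs set down as endosperm markers lay at 3.75 to 9.28 log2 CPM in the embryo, where 5 of 6 had a level, and at 8.79 to 16.84 in the endosperm, where all 6 had one. Their relative differences were -5.51 to -8.92. Of 4 IDs set down as embryo markers, 1 had an embryo level only, and the other 3 had relative differences of 1.84, -0.51 and -1.26. These 3 IDs were thus not absent from the endosperm means, and 2 of the 3 were relatively lower in the embryo. Before the median was taken off, those 2 were higher in the embryo by 0.81 and 0.06. The ID with an embryo level only was at 4.46 log2 CPM. The embryo list was therefore mixed and did not as a whole set the tissues apart. The part of either marker list in the values below was not tested.

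Not every listed member had a level, and since the list was drawn up with the tables known, these counts are a description. All 19 ARF members were in the embryo tables and 16 of them in the endosperm tables. Of the 25 Aux/IAA members, 13 were in the embryo tables and 9 in the endosperm tables, 8 of them in both. The other 11 listed Aux/IAA members had no row in any table and were not analysed here: OS01G0190300, OS01G0741900, OS02G0228900, OS03G0633500, OS03G0633800, OS03G0797800, OS05G0186900, OS06G0166500, OS06G0597000, OS09G0527700 and OS12G0601400. A missing row may mean that a gene did not pass the authors' filter on low values, which is not stated. The deposited tables began at 0.05 log2 CPM in the embryo and 0.27 in the endosperm, whereas the lowest member with a level was at 1.36 in the embryo and 1.33 in the endosperm.

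The Aux/IAA genes are taken first. In the embryo, the 13 genes ranged from 1.37 to 7.09 log2 CPM with a median of 4.29, and 8 of the 13 lay above the median of all embryo genes. Against the median of the genes with a level in both tissues, only 5 of the 13 did. OS01G0178500 had the highest level, 7.09, which is 136 CPM and above 93.0% of the embryo genes. OS05G0559400 followed at 6.85, or 115 CPM. These 2 genes together took 55.4% of the summed CPM of the family in the embryo. The next were OS06G0335500 at 5.51, OS05G0178600 at 5.31 and OS12G0601300 at 4.60. The low end was formed by OS03G0742900 at 1.37, OS02G0805100 at 1.49 and OS05G0523300 at 2.19. The 5 genes between these ends lay at 3.33 to 4.43.

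In the endosperm, the 9 Aux/IAA genes with a level ranged from 1.36 to 5.99 with a median of 2.90, and 4 of the 9 lay above the median of all endosperm genes. The same 2 genes had the highest levels, OS01G0178500 at 5.99 and OS05G0559400 at 5.36, and together they took 68.5% of the summed CPM of the family. OS05G0178600 at 3.90, OS06G0335500 at 3.37 and OS01G0675700 at 2.90 came next. The lowest were OS01G0286900 at 1.36, OS05G0230700 at 1.42 and OS02G0805100 at 2.31. Without replicate values it cannot be said which neighbours in these orders differ beyond their spread.

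The ARF genes covered a similar range of levels. In the embryo, the 19 genes lay between 1.36 and 8.23 log2 CPM with a median of 5.01, and 13 of the 19 were above the median of all embryo genes. OS01G0927600 had the highest level, 8.23 or 301 CPM, above 97.2% of the embryo genes. OS12G0479400 at 8.05 and OS01G0670800 at 7.43 followed, and these 3 genes took 56.0% of the summed CPM of the family. OS02G0557200 and OS02G0164900 came next at 6.63 and 6.52. The lowest ARF genes in the embryo were OS02G0141100 at 1.36, OS04G0664400 at 2.54 and OS06G0702600 at 2.70.

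In the endosperm, 16 ARF genes ranged from 1.33 to 7.37 with a median of 3.88, and 9 of the 16 were above the median of all endosperm genes. OS01G0927600 was again the highest at 7.37, or 166 CPM, and took 34.1% of the summed CPM of the family. The second place went to OS05G0515400 at 6.32, which was only the eleventh of the ARF genes in the embryo. OS12G0479400 at 5.94, OS06G0196700 at 5.56 and OS01G0670800 at 5.02 followed. The lowest were OS04G0442000 at 1.33, OS04G0671900 at 1.77 and OS02G0628600 at 1.92. The summed CPM of the listed ARF genes was 1315 in the embryo and 485 in the endosperm, and that of the listed Aux/IAA genes was 453 in the embryo and 153 in the endosperm. These sums are of reads, are not corrected for gene length, and leave out members without a row. They are also not set relative to the median tissue difference. Over all genes with both levels, the embryo value was larger by a median of 2.50-fold.

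**Figure D1:**
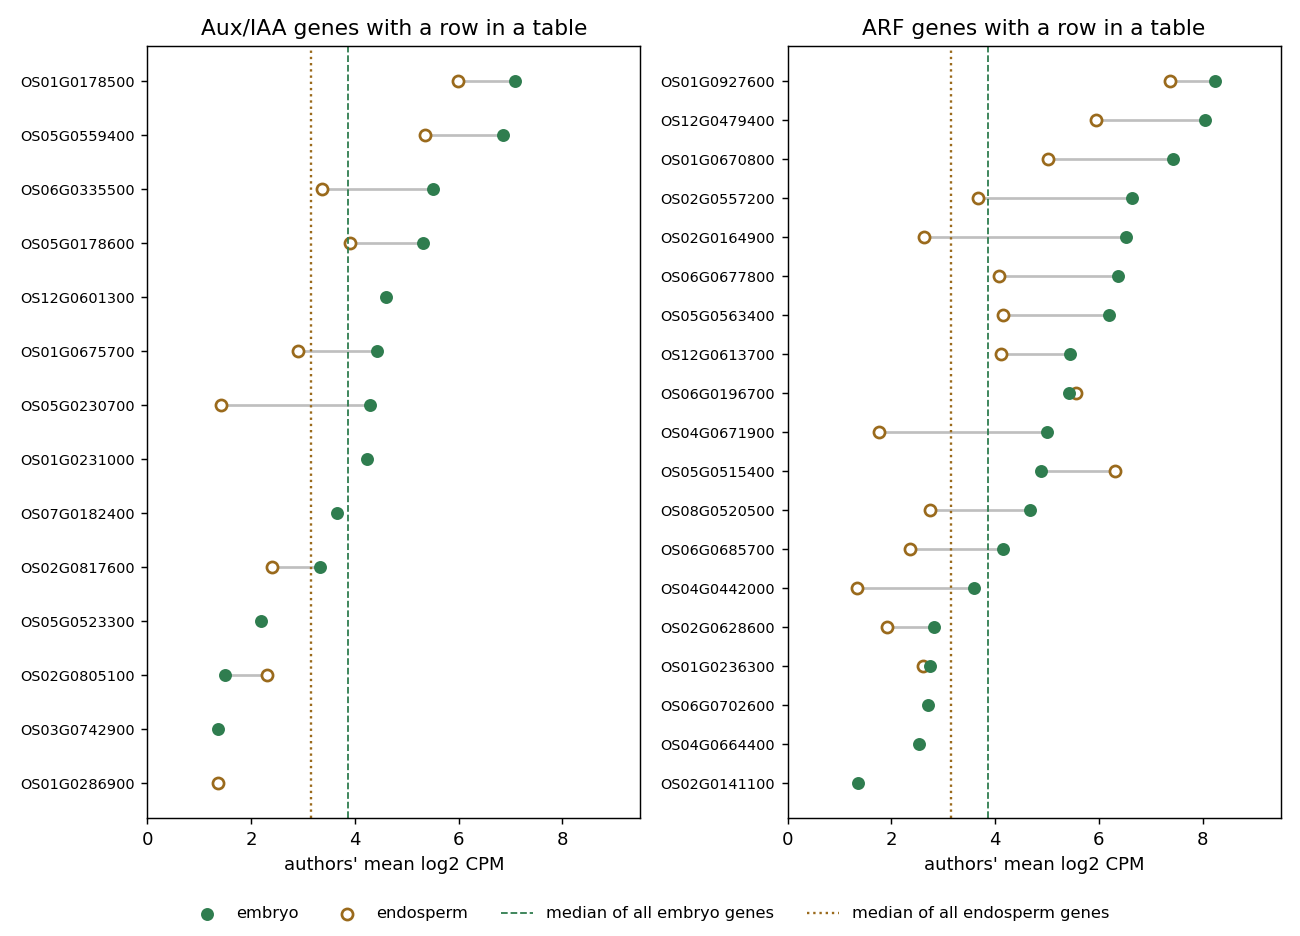
Mean log2 CPM (horizontal axis, authors' pooled means with no error available) of each Aux/IAA gene (left) and ARF gene (right) that had a row in a table, with filled points for embryo, open points for endosperm, and vertical lines at the medians of all genes, 3.87 in embryo and 3.15 in endosperm. OS01G0178500 and OS05G0559400 lead the Aux/IAA genes and OS01G0927600 leads the ARF genes in both tissues, while a single point in a line marks a gene with a level in 1 tissue only.

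A group of 8 members had a level in the embryo tables only, 5 Aux/IAA and 3 ARF. They were 38.5% of the 13 Aux/IAA genes and 15.8% of the 19 ARF genes in the embryo tables, where 22.1% of all embryo genes had no endosperm row. The 3 ARF genes, OS02G0141100, OS04G0664400 and OS06G0702600, were also the 3 lowest ARF genes of the embryo, at 1.36 to 2.70 log2 CPM. Over all genes found in the embryo tables only, the median embryo level was 1.87.

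The 5 Aux/IAA genes reached higher embryo levels. OS12G0601300 had 4.60 log2 CPM, OS01G0231000 had 4.23 and OS07G0182400 had 3.65, while OS05G0523300 had 2.19 and OS03G0742900 had 1.37. At an embryo level of 4 to 5 log2 CPM, only 2.31% of 2942 embryo genes lacked an endosperm row. Of the members in that band, 2 of 4 Aux/IAA genes lacked one, namely OS12G0601300 and OS01G0231000, and 0 of 3 ARF genes did. The band was chosen after these levels were seen, and it holds too few members to read as a property of the family. OS12G0601300 and OS12G0601400 are adjacent Aux/IAA IDs on chromosome 12 with 0 other tabled IDs between them, and the second had no row in either tissue. A second Aux/IAA pair, OS03G0633500 and OS03G0633800 on chromosome 3, also had 0 other tabled IDs between them, and neither had a row in any table.

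The reverse case was a single gene. OS01G0286900, taken as Aux/IAA, had an endosperm level of 1.36 log2 CPM and no embryo row, against 6.29% of all endosperm genes that had no embryo row. Its level was above only 9.70% of the endosperm genes.

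For the 24 members with both levels, the plain embryo value was larger in 21 and smaller in 3, which have to be read against the median of 1.32 over all genes. In such bulk samples, fewer cells that express a gene and less of its RNA per cell cannot be told apart. Relative to that median, the 16 ARF genes had a median difference of 0.66 and the 8 Aux/IAA genes a median of 0.13, both on the log2 scale. The middle 50% of all genes lay between -0.57 and 0.46. Of the ARF genes, 11 were above the median difference of all genes and 5 below it, and of the Aux/IAA genes 5 were above and 3 below. These values leave out members with a level in a single tissue. In the embryo tables only were 5 of 13 Aux/IAA genes, at up to 4.60 log2 CPM, and 3 of 19 ARF genes, at up to 2.70. In the endosperm tables only was 1 Aux/IAA gene, at 1.36. The family medians therefore describe members with both levels and do not rank the families by their lean to the embryo. The effect of leaving these members out was not tested.

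Differences of at least 2-fold relative to the median were seen in 9 members. Higher in the embryo were 4 of 16 ARF genes and 1 of 8 Aux/IAA genes, where 7.41% of all genes with both levels were that much higher. Lower in the embryo were 3 of 16 ARF genes and 1 of 8 Aux/IAA genes, where 15.8% of all genes were that much lower. The remaining 9 ARF and 6 Aux/IAA genes lay within 2-fold. These counts depend on the centring. By the plain difference, 11 of 16 ARF and 6 of 8 Aux/IAA genes were at least 2-fold higher in the embryo, beside 65.8% of all genes, and 1 ARF and 0 Aux/IAA genes were at least 2-fold lower, beside 4.36%.

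OS02G0164900 had the largest embryo excess among the members. This ARF gene had 6.52 log2 CPM in the embryo and 2.63 in the endosperm, a relative difference of 2.56 that was above 99.7% of all genes. The ARF gene OS04G0671900 had 5.01 in the embryo and 1.77 in the endosperm, a relative difference of 1.92. OS02G0557200, also an ARF gene, had 6.63 in the embryo and 3.68 in the endosperm, with a relative difference of 1.63. Even the value of OS02G0557200 was above that of 98.4% of the genes with both levels. Among the Aux/IAA genes, OS05G0230700 had 4.29 in the embryo and 1.42 in the endosperm, a relative difference of 1.54. The last member past 2-fold was the ARF gene OS01G0670800, with a relative difference of 1.08, and the next, OS06G0677800, fell just short at 0.98.

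In the other direction, the ARF gene OS05G0515400 stood farthest out. Its level was 4.89 log2 CPM in the embryo and 6.32 in the endosperm, so it was lower in the embryo even before the median was taken off, and its relative difference was -2.76. Only 3.11% of all genes had a lower value. The Aux/IAA gene OS02G0805100 had 1.49 in the embryo and 2.31 in the endosperm, with a relative difference of -2.14. The ARF genes OS06G0196700 and OS01G0236300 had relative differences of -1.45 and -1.18. Their plain levels were close in the tissues, at 5.43 in the embryo and 5.56 in the endosperm for OS06G0196700, and at 2.75 in the embryo and 2.61 in the endosperm for OS01G0236300. The direction of OS01G0236300 thus turns without the centring, to 0.14.

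**Figure D2:**
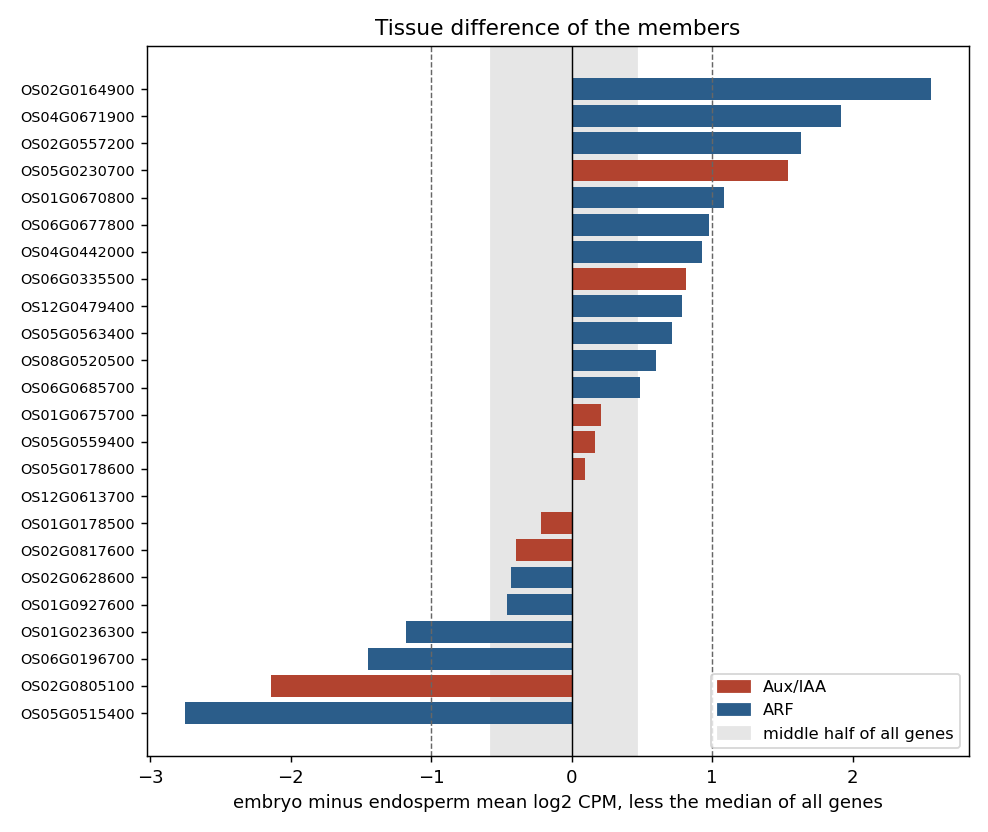
Embryo minus endosperm mean log2 CPM of the 24 members with both levels, less the median of 1.32 over all 13166 genes (horizontal axis), with the Aux/IAA and ARF genes in separate colours, dashed lines at a 2-fold difference and a grey band for the middle 50% of all genes. The bars have no error because the means are pooled, and they run from -2.76 for OS05G0515400 to 2.56 for OS02G0164900.

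The genes that led their family in both tissues, OS01G0927600 among the ARF genes and OS01G0178500 and OS05G0559400 among the Aux/IAA genes, had relative differences of -0.46, -0.22 and 0.17. The ARF gene OS12G0479400, the second in the embryo, was at 0.79. OS12G0613700, an ARF gene with 5.44 log2 CPM in the embryo and 4.12 in the endosperm, lay at the median of all genes. The remaining Aux/IAA genes within 2-fold were OS06G0335500, OS01G0675700, OS05G0178600 and OS02G0817600, at -0.39 to 0.82. The remaining ARF genes within 2-fold were OS06G0677800, OS04G0442000, OS05G0563400, OS08G0520500, OS06G0685700 and OS02G0628600, at -0.43 to 0.98.

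Across members, embryo and endosperm levels had a Pearson r of 0.70 over 16 ARF genes and 0.82 over 8 Aux/IAA genes, beside 0.78 over the 13166 genes. Spearman's rho was 0.66 for the ARF genes, 0.90 for the Aux/IAA genes and 0.80 for all genes. These are correlations across genes within pooled means of the same libraries, and genes are not independent replicates.

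**Figure D3:**
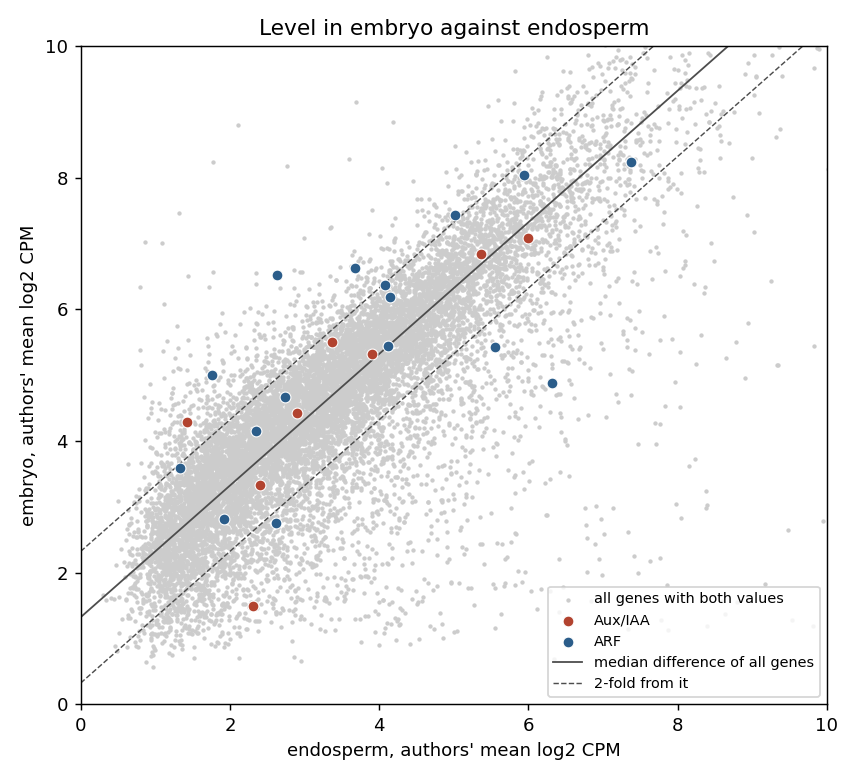
Mean log2 CPM in the embryo (vertical axis) against the endosperm (horizontal axis) for all genes with both levels (grey), the 8 Aux/IAA genes and the 16 ARF genes, with axes stopped at 10. The solid line is the median difference of 1.32 and the dashed lines lie 2-fold from it; 5 members lie above the upper dashed line and 4 below the lower.

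Other genes of the pathway were taken from a list of 21 IDs for auxin synthesis, transport, conjugation, perception and co-repression. Most of these IDs, like the marker IDs above, were written down from general knowledge and could not be checked against an annotation here, so a low count may also reflect a wrong ID. Only 8 of them had an embryo level and 7 an endosperm level, and 0 of the 6 with both differed by 2-fold or more from the median of all genes in either direction. Over all genes with both levels, 7.41% were that much higher in the embryo and 15.8% that much lower. With so few IDs, 0 of 6 cannot be read as a property of the pathway. All 4 IDs listed as receptors had an embryo level, at 2.26 to 7.90 log2 CPM, and the 3 that also had an endosperm level had relative differences of 0.72 to 0.91. Of the receptors, which trigger Aux/IAA breakdown when auxin binds, OS02G0759700 (OsAFB4) had 4.10 in the embryo and 1.95 in the endosperm. OS03G0187500 (OsAFB6) had 2.26 in the embryo and no endosperm row. Both were annotated in the study's supplement among hormone-related genes that the study had picked from these libraries. The other receptor IDs, OS04G0395600 and OS05G0150500, had higher levels than these 2 genes. They were at 7.90 and 6.84 in the embryo and at 5.67 and 4.80 in the endosperm.

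GH3 enzymes join hormones such as auxin to amino acids, and 2 of the 5 listed had levels. OS07G0592600 (OsGH3-8), annotated as an auxin-amido synthetase, had 2.38 log2 CPM in the embryo and 1.92 in the endosperm, a relative difference of -0.86. OS05G0586200 (OsGH3-5) had 4.82 in the embryo and 4.09 in the endosperm, a relative difference of -0.60. Which hormone OsGH3-5 acts on was not checked here, so it may not belong to the auxin pathway. Of 5 IDs listed for synthesis, 0 had an embryo level and 1 an endosperm level, and of 6 listed for transport, 1 had an embryo level and 0 an endosperm level. The ID listed as co-repressor, OS08G0162100, had 6.65 in the embryo and 5.76 in the endosperm, a relative difference of -0.43.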

How the data were processed

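RNA of embryo and endosperm was sequenced by the authors. Per the study's methods, reads were trimmed with Trimmomatic, aligned to the IRGSP reference genome with HISAT2, counted with featureCounts, and brought to CPM with trimmed-mean scaling. The authors deposited 6 tables, 1 per tissue and stage, and the level used here is their mean log2 CPM column, whose values agree exactly between the 3 tables of each tissue. The remaining columns hold the authors' own comparison of the accessions (log2 fold change, p-value and false discovery rate) and were not used. No column held values of single samples, so library depth and replicate spread could not be computed.

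The members and the gene lists were chosen with earlier results of these data known, so counts of members with a row are descriptions. The split into families was inferred from the order of the membership list, which carries no family labels, and chromosomes are read from the gene IDs. Of the member IDs, 0 matched the RefSeq table, so no gene name, length or sequence is given. Names of other pathway genes come from the study's supplement. Values are given in full for the 5 highest and 3 lowest genes of a family and tissue, genes with a level in 1 tissue, and the 4 largest and 4 smallest tissue differences. Tissue differences were computed as embryo minus endosperm mean log2 CPM less the median over genes with both values. This step was also run on simulated data with an even shift, little noise and planted differences well past 2-fold. That run checks the code only and does not test the centring on data like these. Python 3.11.15 with pandas 2.3.3 and matplotlib 3.10.9 was used. Other centrings, a filter on low values and other medians were tried.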

Additional observations from a re-analysis of the deposited data

How the results depend on the processing

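Taking the plain embryo minus endosperm difference, without the median over all genes, changed the tissue comparison most. Among members with both levels, the median difference became 1.45 for the Aux/IAA genes and 1.98 for the ARF genes. At least 2-fold higher in the embryo were then 6 Aux/IAA and 11 ARF genes, and at least 2-fold lower 0 Aux/IAA and 1 ARF gene, beside 65.8% and 4.36% of all genes with both levels. OS01G0236300 turned to 0.14. The direction was kept in 19 of 24 members and changed in 5. With only genes of at least 1 log2 CPM in both tissues, or with centring within 5 bins of mean level, each of these medians moved by less than 1.5-fold and each count by no more than 1 gene. The direction was kept in 24 of 24 members under the filter and in 23 under the centring by bins. Against the median of genes with a level in both tissues, 38.5% of the 13 Aux/IAA genes lay above it in the embryo, in place of 61.5%. Counting members without a row as below the median gave 32.0% of 25 in the embryo and 16.0% in the endosperm. For the ARF genes these shares stayed between 47.4% and 68.4%. Levels per kilobase and the order by length were not run, since no length matched these IDs. No paired analysis was possible because the tables hold no values per library, and for the same reason no replicate could be left out.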
